A study of Mus musculus with 4 samples.

Results

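The expression of genes of cholesterol and fatty acid metabolism was examined in mouse podocytes treated with IL-12. The 37 genes were taken from the deposited count table by their gene names, as a list of known pathway genes, out of 54532 genes in all. They fall into 13 genes of sterol synthesis, 5 sterol regulators and exporters, 11 genes of fatty acid synthesis and activation, 6 genes of fatty acid oxidation and 2 PPAR receptors. Of the 37 genes, 33 had enough counts to be tested and 4 had not.

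The cells were of MPC5, a conditionally immortalized mouse podocyte line that grows with interferon-γ at a permissive temperature and differentiates once both are withdrawn. The IL-12 treatment group held 2 libraries from cells given IL-12 for 6 h, and the control group held 2 libraries from cells given saline. No source says that replicates were grown separately, so the p-values measure the spread between these libraries, which may be technical. As a single immortalized line the cells are a limited model of the podocyte. The counts of Nphs1, Ptpro and Tcf21, which define the differentiated podocyte, were 0 or 1 in each library, while Synpo, Podxl, Cd2ap and Actn4 were abundant.

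The total counts were between 18355379 and 20098012 per library, at which 3 counts, taken as the floor, equal 0.149 to 0.163 CPM (counts relative to library size), for counting error only. The quasi-likelihood test of edgeR was run over 14095 genes, and genes were called at an adjusted p below 0.05. The fold changes are of the IL-12 treatment group over the control group. Values are CPM scaled by the TMM method unless FPKM, the deposited level per gene length, is named. Of 6 adipocyte and 4 hepatocyte markers, none had over 1 count in any library, and the 5 endothelial markers summed to 0.159 to 0.556 CPM. Of 5 macrophage and leukocyte markers Csf1r fell (log2 fold change -0.88) and Adgre1 was at 0 in every library, and their sum was 26.6 and 29.1 CPM in control and 16.1 and 20.3 CPM after IL-12. Of 4 proximal tubule markers Lrp2 fell (-0.27) and Slc34a1 and Slc5a2 were at 0, and the sum was 660 and 635 CPM against 519 and 560 CPM. Of 5 mesangial and fibroblast markers Pdgfrb, Acta2 and Col1a1 rose (0.23, 0.14 and 0.70), and the sum was 202 and 201 CPM against 227 and 234 CPM. Of the 10 podocyte markers 3 rose and 1, Synpo, fell (-0.66), and the sum was between 1950 and 1981 CPM in all libraries. The part of these markers in the results below was not tested. In RNA of a whole culture, fewer expressing cells and less RNA per cell cannot be told apart.

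Cells make cholesterol from acetyl-CoA along the mevalonate pathway, and the enzymes are controlled together by the transcription factor SREBP-2, while SREBP-1 mainly drives fatty acid synthesis. Fatty acids are built from cytosolic acetyl-CoA, activated by joining to coenzyme A, and then stored, built into membranes, or carried into mitochondria for β-oxidation. Lipid build-up in podocytes is known from several kidney diseases.

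Across the 33 tested genes, 9 rose, 5 fell and 19 did not pass the test. Over all genes tested, 16.1% were called higher and 14.4% lower. The share of these genes called lower was near the background. Acsbg1 was the only gene of the 33 that changed over 2-fold, against 1.61% of all genes tested. The groups did not overlap for 27 of the 33 genes, and this was the case for 62.9% of all genes tested. Fatty acid synthesis and activation had 6 of 10 tested genes higher and 1 lower, with a median log2 fold change of 0.25. Fatty acid oxidation had 3 of 6 lower and 0 higher, with a median of -0.18. Sterol synthesis had 3 of 13 higher and 0 lower, with a median of -0.03. The median of all genes tested was -0.0022. Of the genes called over all genes tested, 52.8% were higher, and with scaling by library totals only this was 40.5%, although no called gene of the 33 changed direction.

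**Figure D1:**
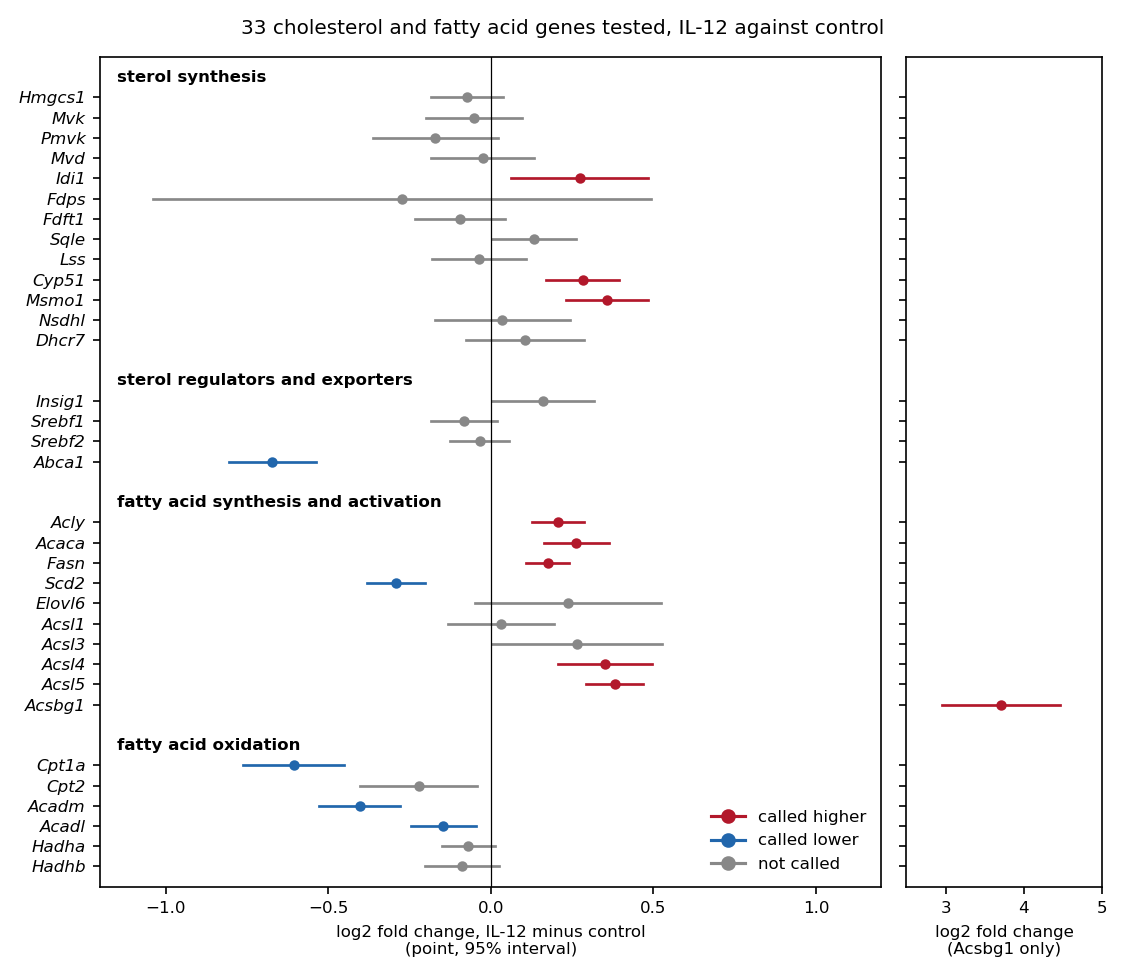
The log2 fold change of each of the 33 tested genes (horizontal axis, IL-12 minus control) is drawn as a point with its 95% interval, by role, with Acsbg1 on an axis of its own at 3.71. Red genes were called higher, blue genes lower and grey genes were not called, and the red points lie mainly in fatty acid synthesis and activation while oxidation has points below 0 only.

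The summed level of the 6 oxidation genes was 496 and 481 CPM in control and 423 and 428 CPM after IL-12. That of the 11 genes of fatty acid synthesis and activation was 991 and 975 CPM in control and 1109 and 1084 CPM after IL-12. The 13 sterol synthesis genes summed to 455 and 449 CPM and to 473 and 482 CPM. In each of these sums the groups did not overlap, and the sums are dominated by the genes with most counts.

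Of the sterol synthesis genes 10 of 13 did not pass the test. Those that rose encode an isomerase of the mevalonate pathway, the lanosterol demethylase and a methylsterol monooxygenase. Msmo1 (ENSMUSG00000031604), a methylsterol monooxygenase, lies on chromosome 8 from 64718139 to 64733792 of GRCm38. It had 49.7 and 54.2 CPM in control and 63.9 and 69.2 CPM after IL-12. The 2 IL-12 libraries lay above both control libraries, with a log2 fold change of 0.36 ± 0.06 (SE, adjusted p = 0.000148 from edgeR's quasi-likelihood test). Cyp51 (ENSMUSG00000001467, chromosome 5 from 4081145 to 4104746), the lanosterol demethylase, had 62.6 and 60.1 CPM in control and 72.3 and 76.9 CPM after IL-12. Its groups did not overlap either, with a log2 fold change of 0.28 ± 0.05 (SE, adjusted p = 0.000462). Cyp51 overlaps Akap9 on the opposite strand, and no source says whether strand was used in counting. Akap9 fell, with a log2 fold change of -0.20, the opposite direction to Cyp51. Idi1 (ENSMUSG00000058258, chromosome 13 from 8885501 to 8892451), the isopentenyl diphosphate isomerase, had 15.4 and 14.1 CPM against 17.5 and 18.1 CPM. It changed by 0.27 ± 0.10 (log2, SE), at the edge of the threshold (adjusted p = 0.0467), and lost the call in 9 of 13 alternative settings.

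The other genes of the pathway did not pass the test. Hmgcs1, which makes the precursor of mevalonate, had 76.0 and 70.8 CPM in control and 69.9 and 69.6 CPM after IL-12. Its log2 fold change was -0.07, with a 95% interval from -0.18 to 0.04. The mevalonate kinases and decarboxylase Mvk, Pmvk and Mvd had log2 fold changes of -0.05, -0.17 and -0.03. For the squalene enzymes, the values were -0.09 for the synthase Fdft1, 0.13 for the epoxidase Sqle and -0.04 for the cyclase Lss. The late enzymes Nsdhl and Dhcr7 were at 0.04 and 0.10. The 95% interval of Sqle, not adjusted for the number of genes, was from 0.0037 to 0.26. It lay above 0 and overlapped that of Cyp51 (0.17 to 0.39), and whether these genes differ was not tested. The interval of Pmvk reached -0.36. Fdft1 overlaps the more abundant Ctsb on the opposite strand, which had a log2 fold change of -0.04.

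Fdps, the farnesyl diphosphate synthase, was listed far below the rest of its pathway. It had 35 and 31 counts in control and 40 and 15 counts after IL-12, and its level per gene length was 0.415 FPKM in the control group against 3.18 to 16.0 FPKM for the other 12 genes. Several processed pseudogenes match its transcripts at over 90% identity, and Gm3571, at 98.9% identity over 1062 bases, had 388 counts over the 4 libraries against 121 for Fdps. The counting could have split reads between them, so the value of Fdps is uncertain. Gm43738, a protein-coding gene on the same strand, also overlaps Fdps, at 100% identity over 677 bases, and had 2 counts. The part of these genes in the low level of Fdps was not tested. With the counts of the pseudogene copies added, the log2 fold change of Fdps was 0.02 in place of -0.27. The standard errors were 0.14 and 0.36, and this alternative was chosen after seeing the data.

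**Figure D2:**
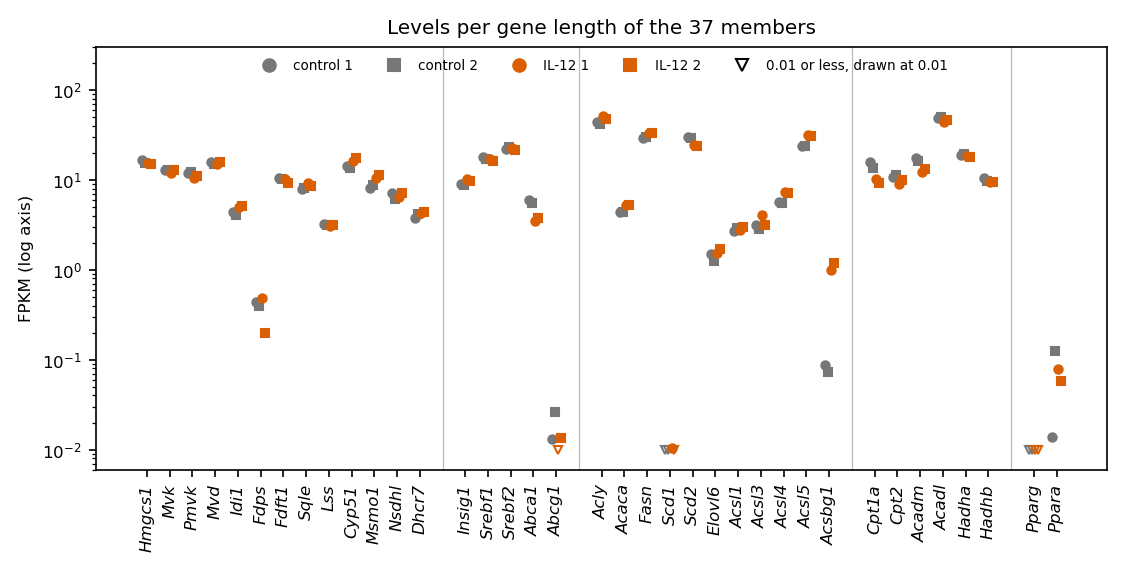
The deposited FPKM (vertical log axis) of each of the 37 genes is drawn for the 4 libraries, control in grey and IL-12 in orange, by role from sterol synthesis on the left to the PPAR receptors on the right. Open triangles mark values of 0.01 or less, and Fdps, Abcg1, Scd1, Pparg, Ppara and Acsbg1 lie below all other genes in both groups.

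The start regions of these genes were read to see which letters the genes that moved share with those that did not. RefSeq promoter windows on GRCm38.p6, from 250 bases before to 50 bases after each start, were found for 31 of the 37 genes. A CCAAT box (CCAAT on either strand), the binding motif of NF-Y, which works beside SREBP, was in the window of 10 of the 10 sterol synthesis genes with a window, of 6 of 9 genes of fatty acid synthesis and activation and of 1 of 6 genes of fatty acid oxidation. It was in 41.1% of all 27025 genes with a window. By call, it was in 7 of 9 genes that rose, in 12 of 16 that were not called and in 1 of 4 that fell. The GC box (GGGCGG on either strand, the motif of Sp1) was in 24 of the 31 genes and in 38.2% of all genes. The E-box CACGTG was in 3 of 31 and 8.09%, and the nuclear receptor motif AGGTCA, on either strand, in 8 of 31 and 18.1%. A strict sterol regulatory element, TCACNCCAC on either strand, was in Hmgcs1 and Acsl1 and in 1.44% of all genes. These matches are descriptions of letters in fixed windows. The 27025 genes include many with too few counts to be tested here, and the shares among tested genes alone were not computed. The absence of a match says only that these letters are not there.

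The 150 bases before the start are given 5′ to 3′ on the gene's strand for 5 genes: Hmgcs1 as a pathway gene that was not called, Cyp51 and Msmo1 as its genes with the smallest p-values, Acsbg1 with the largest change and Cpt1a as the oxidation gene that fell most. Capitals mark CCAAT boxes on either strand and, in Hmgcs1, the sterol regulatory element. They lie on chr13:119690201-119690350 (plus strand), chr5:4104698-4104847 (minus), chr8:64733579-64733728 (minus), chr9:54661886-54662035 (minus) and chr19:3323151-3323300 (plus) of GRCm38.p6, in that order.
Hmgcs1: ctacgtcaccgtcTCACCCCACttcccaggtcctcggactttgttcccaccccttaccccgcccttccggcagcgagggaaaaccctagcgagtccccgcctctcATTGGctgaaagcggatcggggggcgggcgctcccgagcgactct
Cyp51: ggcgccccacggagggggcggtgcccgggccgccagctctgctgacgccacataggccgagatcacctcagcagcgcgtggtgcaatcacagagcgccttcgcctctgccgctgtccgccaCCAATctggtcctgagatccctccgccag
Msmo1: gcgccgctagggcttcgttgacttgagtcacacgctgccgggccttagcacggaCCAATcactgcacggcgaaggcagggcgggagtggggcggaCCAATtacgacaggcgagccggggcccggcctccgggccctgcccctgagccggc
Acsbg1: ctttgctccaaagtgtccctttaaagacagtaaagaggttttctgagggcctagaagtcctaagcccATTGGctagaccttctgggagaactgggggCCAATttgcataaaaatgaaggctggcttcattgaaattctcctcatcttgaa
Cpt1a: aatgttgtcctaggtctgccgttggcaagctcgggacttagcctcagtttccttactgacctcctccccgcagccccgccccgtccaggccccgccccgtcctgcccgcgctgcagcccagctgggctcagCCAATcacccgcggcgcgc
Both Msmo1 and Acsbg1 carry more than 1 CCAAT box in this stretch, and Cyp51, Hmgcs1 and Cpt1a carry 1 each, in Cpt1a closest to the start.

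Among the regulators, the SREBP genes did not pass the test. Srebf2, which encodes SREBP-2, had 160 and 165 CPM in control and 164 and 153 CPM after IL-12, and its groups overlapped. Srebf1 had 102 and 96.2 CPM against 95.1 and 91.7 CPM. Their log2 fold changes were -0.03 (95% interval -0.12 to 0.06) and -0.08 (-0.18 to 0.02). Srebf1 overlaps Rai1 on the opposite strand, which had a log2 fold change of 0.04. Insig1, which holds the SREBPs in the endoplasmic reticulum when sterols are plentiful, was at 27.7 and 27.3 CPM against 31.5 and 30.0 CPM, with an adjusted p of 0.118.

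Abca1 (ENSMUSG00000015243, chromosome 4 from 53030787 to 53159895), the transporter that exports cholesterol to apolipoproteins, had the most negative log2 fold change of the 33 tested genes. It had 61.4 and 57.2 CPM in control and 35.8 and 38.7 CPM after IL-12. Both IL-12 libraries lay well below both control libraries, with a log2 fold change of -0.67 ± 0.06 (SE, adjusted p = 1.92e-07 from edgeR's quasi-likelihood test), so that the level fell by 37.2%, from 59.3 ± 3.02 to 37.3 ± 2.09 CPM (SD, n = 2 each). Abcg1, the other exporter on the list, had 1 and 2 counts in control and 0 and 1 after IL-12. Under the floor in every library, a difference was not detectable at this depth.

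Of the genes that build fatty acids, the core enzymes Acly, Acaca and Fasn all rose. Acly, which makes cytosolic acetyl-CoA from citrate, had 230 and 223 CPM in control and 269 and 253 CPM after IL-12. Acaca, the acetyl-CoA carboxylase that makes malonyl-CoA, had 75.9 and 74.3 CPM against 90.6 and 89.5 CPM. Fasn, the fatty acid synthase, had 323 and 324 CPM against 366 and 364 CPM. In all of them both IL-12 libraries lay above both control libraries.

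Their log2 fold changes were 0.21, 0.26 and 0.17, with standard errors of 0.04, 0.05 and 0.03 and adjusted p of 0.000336, 0.000312 and 0.000259 in the same edgeR test. The genes lie on chromosome 11, Acly (ENSMUSG00000020917) from 100476353 to 100528000, Acaca (ENSMUSG00000020532) from 84129672 to 84401651 and Fasn (ENSMUSG00000025153) from 120805846 to 120824547. The processed pseudogene Gm5182 matches Acaca at 99.2% identity over 6118 bases and had 1216 counts against 6251. Gm5182 itself had a log2 fold change of -0.18 (adjusted p = 0.19), and with its counts added Acaca was still called, at 0.19.

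Of the enzymes that modify the new fatty acid, Scd2 was called and Elovl6 and Scd1 were not. Scd2 (ENSMUSG00000025203, chromosome 19 from 44293676 to 44306864), a desaturase that makes monounsaturated fatty acids, fell from 165 and 157 CPM to 132 and 130 CPM. The groups did not overlap, with a log2 fold change of -0.29 ± 0.04 (SE, adjusted p = 2.6e-05). Its neighbour Scd1 had 0 counts in both control libraries and 1 and 0 counts after IL-12, and no difference was detectable. The transcripts of Scd1 and Scd2 align at 93.6% identity over 897 bases, so some reads could match both. Elovl6, which elongates palmitate, had 8.86 ± 1.21 CPM against 10.5 ± 0.847 CPM (SD, n = 2 each) and did not pass (adjusted p = 0.211).

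Acyl-CoA synthetases join long-chain fatty acids to coenzyme A, and this group held the only change over 2-fold. Acsbg1 (ENSMUSG00000032281), a synthetase of the bubblegum family best known from brain and steroid-producing tissue, lies on chromosome 9 from 54604877 to 54661870. It had 6 and 5 counts in control and 70 and 77 counts after IL-12, or 0.317 and 0.265 CPM against 3.54 and 4.26 CPM. The control counts were just above the floor and the groups were far apart. With under 10 counts in each control library, the gene passed the low-count filter only through the IL-12 libraries, where it was high. The ratio of the groups was 13.1, with a log2 fold change of 3.71 ± 0.36 (SE, 95% interval 2.96 to 4.47, adjusted p = 2.31e-07 from edgeR's quasi-likelihood test).

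In level per gene length Acsbg1 was a minor part of the synthetases also after IL-12. Of the summed FPKM of the 5 synthetases, it made up 0.249% and 0.210% in control and 2.12% and 2.64% after IL-12. Acsl5 made up 67.0% and 67.7% in control and 67.5% and 68.0% after IL-12. The summed level was 35.3 and 35.0 FPKM in control and 46.3 and 44.8 FPKM after IL-12. Any reads of Zdhhc6, which overlaps Acsl5 on the opposite strand, that were counted for Acsl5 would raise its share and this sum.

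Acsl5 (ENSMUSG00000024981, chromosome 19 from 55251938 to 55297720), a synthetase of mitochondria and endoplasmic reticulum, had 115 CPM in both control libraries and 152 and 148 CPM after IL-12. The log2 fold change was 0.38 ± 0.04 (SE, adjusted p = 1.19e-06). It overlaps Zdhhc6 on the opposite strand, which rose too, by 0.25 on the log2 scale, so reads of Zdhhc6 could be among those counted for Acsl5. Acsl4 (ENSMUSG00000031278, chromosome X from 142317993 to 142390535), which prefers arachidonic acid, had 30.9 and 29.8 CPM against 39.3 and 38.1 CPM. Its log2 fold change was 0.35 ± 0.07 (SE, adjusted p = 0.000652). Acsl3, linked to lipid droplets, had 13.9 and 12.2 CPM against 17.6 and 13.7 CPM, with overlapping groups and an adjusted p of 0.122. Acsl1 had 28.0 and 30.6 CPM against 29.0 and 30.9 CPM, a log2 fold change of 0.03 with a 95% interval from -0.13 to 0.19.

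**Figure D3:**
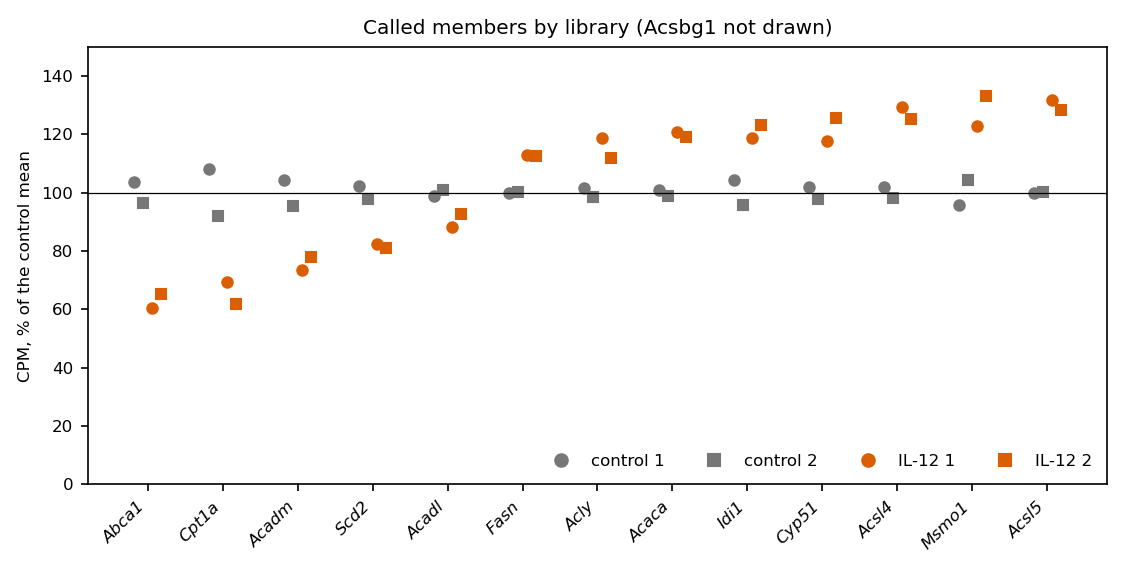
For 13 called genes, ordered by log2 fold change and without Acsbg1, the CPM of each library is drawn as a percentage of the control mean (vertical axis, from 0), control in grey and IL-12 in orange, with circles for replicate 1 and squares for replicate 2. The IL-12 libraries of Abca1 lie at 60.3% and 65.3%, those of Acsl5 at 132% and 129%, and in each gene the groups do not overlap.

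Of the fatty acid oxidation genes, those that fell most stand at the entry of fatty acids into mitochondria and at the first step of the oxidation cycle. Cpt1a (ENSMUSG00000024900, chromosome 19 from 3323301 to 3385732), the carnitine palmitoyltransferase that controls entry and is inhibited by malonyl-CoA, had 68.7 and 58.4 CPM in control and 44.1 and 39.3 CPM after IL-12. The control libraries were apart from each other, but both were above both IL-12 libraries. The level fell by 34.3%, a log2 fold change of -0.61 ± 0.07 (SE, adjusted p = 4.4e-06 from edgeR's quasi-likelihood test). Acadm (ENSMUSG00000062908, chromosome 3 from 153922357 to 153944632), the medium-chain acyl-CoA dehydrogenase, had 68.6 and 62.7 CPM against 48.1 and 51.2 CPM. It fell by 24.4%, with a log2 fold change of -0.40 ± 0.06 (SE, adjusted p = 3.77e-05). Acadl (ENSMUSG00000026003, chromosome 1 from 66830839 to 66863277), the long-chain dehydrogenase, had 99.0 and 101 CPM against 88.2 and 92.8 CPM. Its log2 fold change of -0.15 (standard error 0.05) had an adjusted p of 0.0264, and it lost the call in 5 of 13 alternative settings, which included leaving out either control library or IL-12 replicate 1.

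Cpt2, the inner partner of Cpt1a, had 26.0 and 26.9 CPM in control and 21.4 and 24.0 CPM after IL-12. Its groups did not overlap, but it did not pass the test (log2 fold change -0.22, standard error 0.09, adjusted p = 0.0582). Hadha and Hadhb encode the subunits of the trifunctional protein, which carries out the later steps, and lie head to head on chromosome 5 with 85 bases between them. Their log2 fold changes were -0.07 (95% interval -0.15 to 0.01) and -0.09 (95% interval -0.20 to 0.03), and neither passed. A fall as large as that of Cpt1a was outside both intervals. The processed pseudogene Gm13910 matches Hadhb at 99.8% identity over 1428 bases and had 1705 counts against 4908, so the level of Hadhb is uncertain.

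PPAR receptors are transcription factors that switch on oxidation and fat storage genes. Those of the list, Pparg and Ppara, were at or near the floor. Pparg had 0 counts in all 4 libraries, which allows up to 0.149 to 0.163 CPM. Ppara had 1 and 9 counts in control and 6 and 4 counts after IL-12, and was not tested. Ppard, a PPAR receptor that is no part of the list, was well above the floor. It had 82.1 and 81.3 CPM in control and 85.5 and 86.3 CPM after IL-12, and was not called.

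Other genes of the same pathways, from lists that are no part of the 37 genes, were then examined. Like the 37 genes, these lists were chosen with earlier results of these data known. Their counts below are therefore a description and no independent check. All 23 tested genes of fatty acid oxidation, 6 of the list and 17 others, had a log2 fold change below 0, while 50.5% of all genes tested did. Of these 11 fell and 0 rose, with a median of -0.17, and 7 fell by the DESeq2 Wald test. All 23 also lay below 0 with each other scaling. Among the 17, Acaa2 (a thiolase), Cpt1c and Etfdh (electron transfer to the respiratory chain) had the smallest p-values. Acaa2 fell from 49.4 and 48.5 CPM to 39.6 and 35.8 CPM (log2 fold change -0.37), Cpt1c from 103 and 111 CPM to 90.3 and 89.6 CPM (-0.25), and Etfdh from 80.8 and 84.1 CPM to 70.4 and 68.9 CPM (-0.24).

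**Figure D4:**
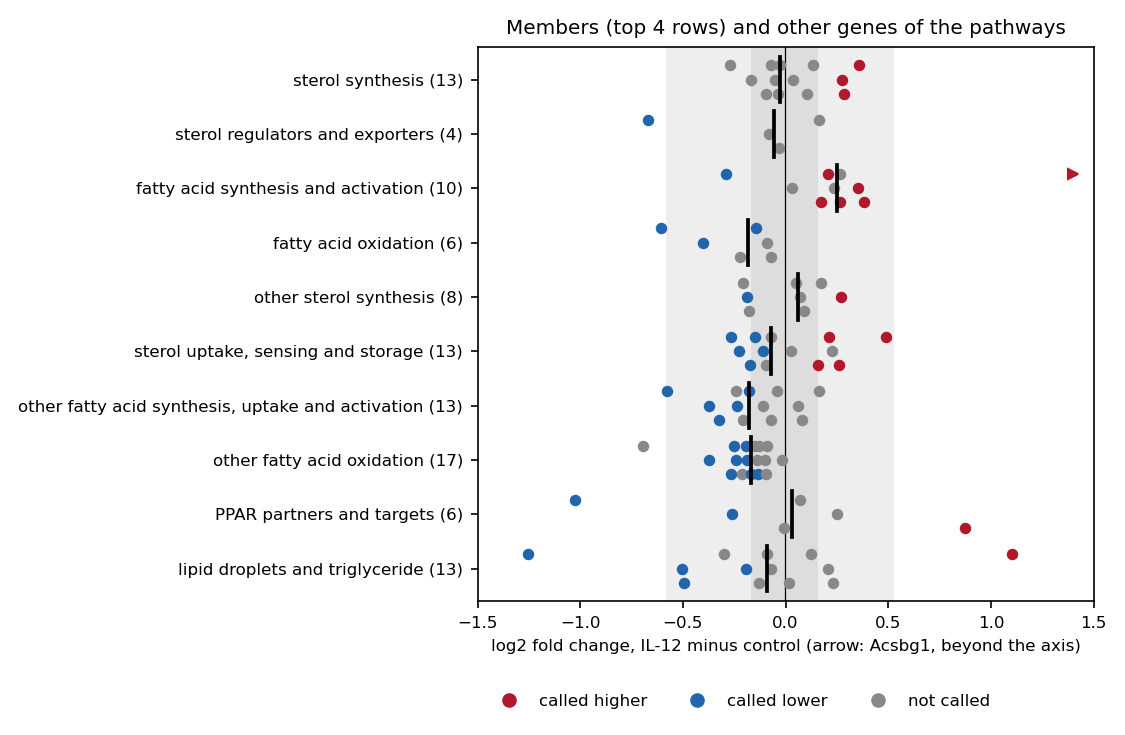
Each point is the log2 fold change (horizontal axis) of a tested gene, with the number of genes behind each name, black bars for medians, the dark band for the middle 50% and the light band for the middle 90% of all genes tested. The points of both rows of fatty acid oxidation lie below 0. Those of fatty acid synthesis and activation lie above 0 except for Scd2, while in the row of other genes of fatty acid synthesis, uptake and activation 10 of 13 lie below 0.

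Of 13 other genes of fatty acid synthesis, uptake and activation tested, 0 rose and 5 fell, with a median of -0.18, and whether they differ from the 10 tested genes of the main list was not tested. Fads2, a desaturase of polyunsaturated fatty acids, fell from 298 and 296 CPM to 255 and 249 CPM (log2 fold change -0.24). Mid1ip1, an activator of acetyl-CoA carboxylase, had a log2 fold change of -0.32, and Slc27a1, a fatty acid transporter, of -0.58 (adjusted p = 6.1e-05 and 7.4e-05). The other genes of these 13 that fell, named after their values were seen, were Elovl7, an elongase, and Fads1, a desaturase, with log2 fold changes of -0.37 and -0.18.

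Of 8 other sterol synthesis genes tested, 1 rose and 1 fell. Their log2 fold changes were between -0.21 and 0.27, with a median of 0.06. The gene that fell was Sc5d, a late desaturase, from 71.7 and 73.1 CPM to 61.5 and 65.6 CPM. Its log2 fold change was -0.19 (adjusted p = 0.01 in the edgeR test). Of 13 genes of sterol uptake, sensing and storage, 4 rose and 5 fell. Their log2 fold changes were between -0.27 and 0.49, so that the largest change was a rise. Lipa, the lysosomal lipase that frees cholesterol, and Nr1h2, the sterol-sensing receptor that induces Abca1, fell by 0.27 and 0.23 on the log2 scale.

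Of 6 PPAR partners and targets tested, 1 rose and 2 fell, and of 13 lipid droplet and triglyceride genes, 1 rose and 4 fell. Plin2, the coat protein of lipid droplets, rose from 103 and 108 CPM to 196 and 191 CPM (log2 fold change 0.87, standard error 0.04, adjusted p = 2.44e-11). Mgll, the lipase of monoglycerides, rose from 32.7 and 33.7 CPM to 72.1 and 70.3 CPM (1.10). Ppargc1a, a coactivator that drives mitochondrial oxidation genes, fell from 6.92 and 6.31 CPM to 3.54 and 2.93 CPM (-1.03, standard error 0.18). Rxra, a partner of the PPAR receptors, fell by 0.26 on the log2 scale. Plin3 and Lpin1 fell by 0.50 and 0.49. Plin4, picked out after its values were seen, fell by 1.25.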

How the data were processed

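RNA was sequenced from 2 control and 2 IL-12 libraries of the MPC5 line, grouped by the sample labels. The authors deposited raw counts per gene and FPKM for the same genes, in which each FPKM is the count over gene length times a factor constant within a library. The submitters' processing notes name HISAT2, StringTie and mm9, without versions, but 98.3% of the genes shared with GENCODE M21 have its GRCm38 coordinates, so that build is used here. The counting program is not given in the sources used here. The 37 genes and the other lists were chosen with earlier results of these data known.

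Genes were kept by filterByExpr (edgeR 4.0.16, R 4.3.3, at least 10 counts, 15 in total), scaled by TMM and tested by the quasi-likelihood test without a block, Benjamini-Hochberg adjusted over all 14095. CPM are relative to the counts of tested genes. Standard errors are the log2 fold change over the root of F. An exact permutation test of 2 against 2 libraries cannot go below p = 0.333. Replicates were no duplicates: their counts gave a chi-square of 2.20 (control) and 2.52 (IL-12) times its degrees of freedom. Named in detail were genes called over 2-fold and those with the smallest p or largest change of each role, with untested genes by their counts and, of the other lists, up to 3 with the smallest p. Near-identical copies were found with minimap2 2.31 (at least 90% over 200 bases). DESeq2 1.42.0 and limma 3.58.1 served as alternatives. The tests were checked on simulated counts. Some genes of the other lists and of the markers are not reported here.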

Additional observations from a re-analysis of the deposited data

How the results depend on the processing

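Of the 14 called genes, Idi1 and Acadl lost the call in some settings. All other called genes kept it in each setting that tested them, and no called gene changed direction. With the DESeq2 Wald test 1492 genes of all tested were higher, 1213 lower and 103 over 2-fold, against 2267, 2030 and 227. Leaving out 1 library gave 1404 to 2010 higher, 1124 to 1712 lower and 144 to 254 over 2-fold, lowest without IL-12 replicate 1. A filter of 10 counts in every library left 0 of the 37 genes over 2-fold, since it removes Acsbg1. With scaling by library totals only, 5 oxidation genes were lower and the median of fatty acid synthesis and activation was 0.21. That median was 0.18 to 0.32 with 1 library left out. With pseudogene copies added, chosen after seeing the data, it was 0.22 and that of sterol synthesis 0.0211. Genes past the threshold in no setting changed sign as follows. With library totals only, Nsdhl was at -0.0055 and Acsl1 at -0.0097. With pseudogene copies added, Fdps was at 0.0211. With 1 library left out, Mvd was between -0.058 and 0.0103, Acsl1 between -0.029 and 0.097, Nsdhl between -0.057 and 0.14, Srebf2 between -0.085 and 0.0154 and Fdps between -1.07 and 0.21. The cause of these changes was not tested.

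With the replicate number as a block, 9 of the genes were higher and 5 lower, as without it, and no call among them changed. No source says whether same-numbered libraries were handled together. Their deviations correlated at -0.03 across genes, which with 2 libraries per group cannot settle whether they were paired. The remaining limits are the depth for genes near 3 counts and the spread of 2 libraries per group.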
